A study of Bos taurus with 30 samples.

Results

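Open chromatin was followed through bovine preimplantation development as lists of ATAC-seq peaks, and the sites described here were those open at every stage, the 2-cell embryo included. A region of a stage was a stretch covered by the merged peaks of its 3 control replicates and overlapped by peaks of at least 2 of them. Members were the 2-cell regions that shared at least 1 bp with a region of germinal vesicle (GV) oocytes, 4-cell embryos, 8-cell embryos, Morula, inner cell mass (ICM) and embryonic stem cells (ESC). Of 677 2-cell regions, 477 were members, and the control lists of all 7 stages together formed 250139 merged regions. Control groups were GV oocytes taken before maturation, in vitro fertilised embryos at 2-cell (30 to 32 h), 4-cell (day 2), 8-cell (day 3) and Morula (day 5) stages, ICM isolated by immunosurgery on day 7, and ESC derived from ICM and grown on mouse feeder cells. Transcription blocked embryos (TBE) of the 2-, 4- and 8-cell stages came from the same culture rounds as their controls and were kept in 50 μg/ml α-amanitin, which blocks RNA polymerase II, from day 1. Each of the 10 conditions had 3 libraries. All embryos were sired with semen of a single Holstein bull, and each oocyte or embryo library was a pool of at least 500 cells, while an ESC library held 50000 cells. In a pool, a site open in few cells and a site weakly open in all cells cannot be told apart.

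ATAC-seq uses a transposase that inserts adapters where DNA is not packed tightly into nucleosomes, so that reads pile up over promoters, enhancers and other accessible sequence. Cleavage embryos begin with maternal RNA and little transcription of their own, and in cattle the major embryonic genome activation falls around the 8-cell stage. α-amanitin is therefore used to separate openness that an embryo has without its own transcription from openness that follows it. Unplaced scaffolds are assembled sequence without a known chromosomal position, and repeated sequence is common among them. Bovine autosomes are acrocentric, with the centromere near the end from which positions are counted.

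The 2-cell lists set the size of this group. They held 1002, 1262 and 6440 peaks in replicates 1, 2 and 3, against 14355 to 207459 in the 18 other control lists. Between 7.14% and 22.4% of the 2-cell peaks lay on unplaced scaffolds, against 0.444% to 2.65% in the other control lists. TBE lists ran from 925 to 247513 peaks, with 0.751% to 19.5% on scaffolds, so that the length of a list and its scaffold share moved with stage and treatment. Their part in the results was not tested, and no read numbers per library were at hand.

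Since the control lists chose the members, their values there are a description. A peak overlapped 281 members (58.9%) in 2-cell replicate 1, 390 (81.8%) in replicate 2 and 470 (98.5%) in replicate 3, where the lists covered 0.328%, 0.39% and 1.81% of all merged regions. Replicate 3, with the longest 2-cell list, therefore held almost every member, and replicate 1 the fewest. Peaks of all 3 2-cell replicates overlapped 187 members, and 290 members rested on 2 replicates, of which 196 lacked replicate 1, 87 lacked replicate 2 and 7 lacked replicate 3. Just outside the limit lay 2058 single-replicate 2-cell regions that were open at every other stage, 1736 of them from replicate 3. The count of members fell to 273 without 2-cell replicate 2 and to 194 without 2-cell replicate 3, with both remaining replicates then required.

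The other limit of the rule is the number of stages. Of the 200 2-cell regions that were no members, 61 lacked a region of exactly 1 stage. ESC was the missing stage for 35 of these, Morula for 14, 4-cell for 5, GV for 3, and 8-cell and ICM for 2 each. Of the 512 2-cell regions open at all stages other than ESC, 93.2% were also open in ESC, against 97.1% for Morula and 99.0% to 99.6% for the other stages. A 2-cell region that was open from GV to ICM was thus usually open in ESC as well.

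Compared with most open sites, members lay often on unplaced scaffolds and near chromosome starts. Unplaced scaffolds held 104 members (21.8%), spread over 68 scaffolds, and the first 1 Mb of a chromosome held 36 (7.55%). The remaining 337 members (70.6%) lay in the rest of the chromosomes. As the nearest comparison, 8974 reopened sites were taken. These are 4-cell regions that overlap a region of GV, 8-cell, Morula, ICM and ESC but no 2-cell region. Single 2-cell lists still had peaks there, over 1.93%, 1.91% and 19.7% of reopened sites in replicates 1, 2 and 3. Whether the sites had closed in 2-cell embryos was not tested. Only 0.568% of reopened sites were on scaffolds and 0.847% in the first 1 Mb, close to the 0.605% and 0.832% of all merged regions. Of the other 2-cell regions 66.5% were on scaffolds, a larger share than of members, and 4.5% in the first 1 Mb, a smaller one. Whether the members on scaffolds and at chromosome starts are repeats that the assembly holds in fewer copies than the genome was not tested, since it needs the sequence or its mappability. Every chromosome from 1 to 29 and X held a member, from 2 on chromosome 20 to 25 on chromosomes 1 and 2.

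Support among the 2-cell replicates differed with position. All 3 2-cell lists had a peak over 76 of the 104 scaffold members (73.1%) and 27 of the 36 members in the first 1 Mb (75%), against 84 of the 337 others (24.9%). Members in the rest of the chromosomes were also narrower, at a median of 454 bp, against 909 bp on scaffolds and 1104 bp in the first 1 Mb.

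Some members sat close together. Gaps under 20 kb joined 58 placed members into 21 clusters, of which 11 had at least 3 members and 8 began in the first 1 Mb. The largest cluster held 6 members at the start of chromosome 23, from 3414 to 43444 (ARS-UCD1.2). Its members had peaks in 7 to 9 of the 9 TBE libraries, with mean TBE fold enrichments of 2.56 to 5.84. A cluster of 4 members lay on chromosome 13 from 328055 to 364180, and another of 4 on chromosome 2 from 2085791 to 2100399. Away from chromosome starts, clusters differed. Narrow and strongly enriched members stood on chromosome 1 from 116536044 to 116547577 (3 members, mean TBE fold enrichments of 6.60 to 11.3) and on chromosome 8 from 34782005 to 34789154 (2 members, 8.67 and 9.57). Wide and weakly enriched ones stood on chromosome 2 from 121566602 to 121575419 (3 members, 2.15 to 2.83) and on chromosome X from 75132921 to 75139289 (2 members, 3.10 and 3.49). These clusters were picked from the list after their values were seen.

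Members were 201 to 6133 bp wide in the 2-cell embryo, with a median of 539 bp. The widest region over each member had a median of 940 bp in GV, 828 bp in 4-cell and 1252 bp in 8-cell embryos. The median was 1014 bp in Morula, 1043 bp in ICM and 984 bp in ESC. This region was wider than the 2-cell member for 71.5% of members in ESC to 90.8% in 8-cell embryos. Lists of these stages were longer than those of the 2-cell embryo, and the part of list length was not tested. Widths of at least 2 kb were seen in 39 members (8.18%), against 6.19% of all merged regions, 1.31% of reopened sites and 2% of the other 2-cell regions. The members' median was below the 739 bp of reopened sites.

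The TBE libraries took no part in choosing the members, and they show how often the sites had a peak in embryos kept in α-amanitin. Every member had a peak in at least 3 TBE libraries. All 9 TBE libraries had a peak over 188 members (39.4%), against 0.12% of all merged regions, 85 reopened sites (0.947%) and 23 of the other 2-cell regions (11.5%). A further 109 members had a peak in 8 TBE libraries, and 48 had a peak in 5 or fewer. Of the 300 merged regions with a peak in every TBE library, 187 (62.3%) held a member, although only 0.189% of merged regions held any. Support at the 2-cell stage went along with recurrence in TBE: 142 of the 187 members seen in all 3 2-cell control lists (75.9%) were in all 9 TBE lists, and 46 of the 290 seen in 2 (15.9%). By position, 27 of 36 members in the first 1 Mb (75%), 57 of 104 on scaffolds (54.8%) and 104 of 337 elsewhere (30.9%) were in all 9.

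**Figure D1:**
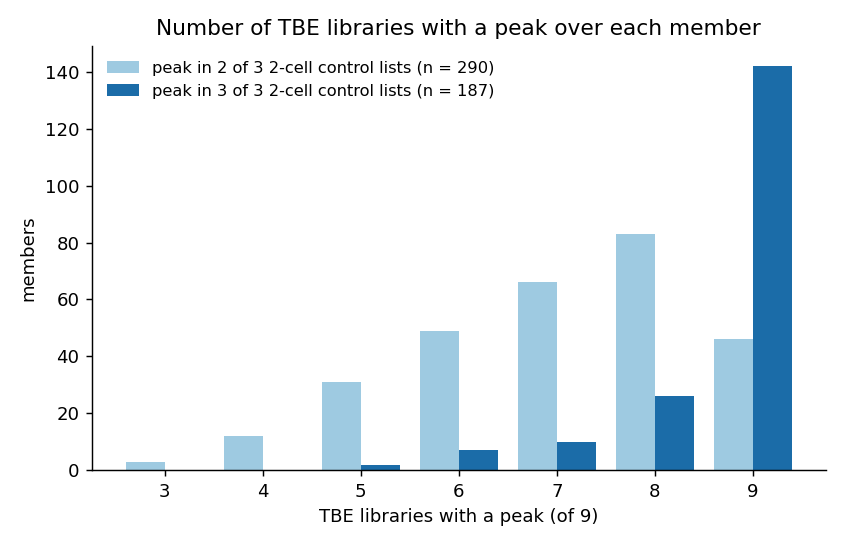
Number of members (y axis) by the number of TBE libraries with a peak over them (x axis, of 9), for members with a peak in 2 (light bars, 290 members) or 3 (dark bars, 187 members) 2-cell control lists. The dark bars gather at 9 libraries, where 142 of the 188 members stand.

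Library by library, members were open in TBE more often than either comparison class. In 2-cell TBE, peaks overlapped 45.7%, 83.2% and 93.1% of members in replicates 1, 2 and 3, where the lists overlapped 0.327%, 2.45% and 3.77% of all merged regions. Reopened sites reached 3.83%, 33.8% and 51.7% in the same lists. In 4-cell TBE the members stood at 97.9%, 78.8% and 69.6%, with 8.76%, 1.45% and 0.962% of all merged regions. Reopened sites, which are 4-cell regions of control embryos, stood at 81.6%, 23.1% and 13.9% there. In 8-cell TBE nearly every member had a peak, at 99.0%, 99.8% and 99.0%, with 21.9%, 40.5% and 13.8% of all merged regions. Reopened sites were as frequent in 2 of these lists, at 98.9% and 99.5%, and stood at 92.1% in replicate 3. The low member shares belong to the shortest lists, since 2-cell TBE replicate 1 held 925 peaks and 4-cell TBE replicate 3 held 3094.

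The difference between members and reopened sites was 29.7 percentage points on average over the 9 TBE libraries and positive in 9 of 9 (85.1% ± 18.2 against 55.4% ± 38.4, SD, n = 9; exact two-sided sign-flip permutation test, p = 0.00390625, the smallest it can give, Benjamini-Hochberg adjusted 0.0078125 over 6 tests). By stage it was 44.3 ± 4.53 points in 2-cell TBE, 42.6 ± 22.8 in 4-cell TBE and 2.38 ± 3.86 in 8-cell TBE (SD, n = 3 each). In the 8-cell libraries the difference was 0.0104, 0.303 and 6.83 points in replicates 1, 2 and 3, where both classes were close to 100% and the share leaves little room for a difference. With the 6 libraries of 2- and 4-cell TBE alone, a choice made after the data had been seen, it was 43.4 points (exact sign-flip p = 0.03125, the smallest for 6). Members were chosen for peaks in the 2-cell control lists, of 1002 to 6440 peaks, and reopened sites for having no 2-cell region. This choice could by itself put members above reopened sites in TBE, and how far it did was not tested.

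Members also stood above the other 2-cell regions, by 19.8 points and in 9 of 9 libraries (85.1% ± 18.2 against 65.3% ± 21.5, SD, n = 9; exact sign-flip p = 0.00390625, adjusted 0.0078125). The other 2-cell regions had a peak in 40.5%, 56% and 58.5% of cases in 2-cell TBE, 87%, 56.5% and 33.5% in 4-cell TBE and 88%, 93% and 75% in 8-cell TBE. Members were chosen for control regions at every stage, 4- and 8-cell included, and the other 2-cell regions for lacking at least 1 stage. This choice could by itself put members above them in TBE, and how far it did was not tested. Position differed between these classes, and its part in the difference was not tested. An alternative added after the data had been seen took only regions outside scaffolds and the first 1 Mb. It left 337 members, 58 other 2-cell regions and 8847 reopened sites. Members there stood 30.7 points above the other 2-cell regions (exact sign-flip p = 0.00390625) and 27.6 points above reopened sites (exact sign-flip p = 0.0117188). These classes were chosen by the same control lists as before.

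Where members had a peak in TBE, its median fold enrichment was also higher than over reopened sites. The same limit holds, since members were 2-cell regions of the short control lists and reopened sites overlapped none. Fold enrichment divides the tags piled up at a site by its local background in that library, so that it compares a site with its surroundings. The median fold enrichment over members was 5.02, 5.02 and 5.31 in 2-cell TBE, 5.56, 5.14 and 4.90 in 4-cell TBE and 5.22, 4.05 and 5.78 in 8-cell TBE. Over reopened sites it was 4.28, 4.24 and 4.38, then 4.38, 4.28 and 4.13, then 4.34, 3.24 and 4.73. The members' median was higher in 9 of 9 libraries, by 0.888 on average (5.11 ± 0.486 against 4.22 ± 0.403, SD, n = 9; exact sign-flip p = 0.00390625, adjusted 0.0078125). The other 2-cell regions, with medians of 4.53 to 5.82, stood above members in 7 of 9 libraries, a difference that was not tested. The low pair of values in 8-cell TBE replicate 2 came from the longest list, of 247513 peaks, whose own median fold enrichment was 2.49.

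Within its own library, the median member peak ranked between the 70.2 and 98.1 percentile of all peaks by fold enrichment in TBE, against 42.5 to 91.2 for reopened sites and 83.2 to 99.1 for the other 2-cell regions. The lowest rank belonged to 2-cell TBE replicate 1 and the highest to 8-cell TBE replicate 2, the shortest and the longest of the TBE lists.

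Around the 2-cell limit of the rule, the share open in 2- and 4-cell TBE was lower the fewer 2-cell control lists had a peak. In 2-cell TBE replicates 1, 2 and 3, peaks overlapped 80.2%, 96.3% and 95.7% of the members seen in 3 control lists, and 23.4%, 74.8% and 91.4% of those seen in 2. For the 2058 single-replicate regions just outside, these shares were 8.36%, 50.9% and 69.1%. The same order held in 4-cell TBE, with 99.5%, 97.3% and 93.0%, then 96.9%, 66.9% and 54.5%, then 91.1%, 38.4% and 25.9%. In 8-cell TBE all 3 sets lay between 94.6% and 100%. The single-replicate regions were narrower, at a median of 285 bp, and 1.36% of them lay on scaffolds, against 9.66% of members seen in 2 lists and 40.6% of those seen in 3.

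By position, scaffold members had a peak in 59.6%, 84.6% and 92.3% of cases in 2-cell TBE, and members in the rest of the chromosomes in 38.3%, 81.6% and 93.5%. In 4-cell TBE these shares were 99.0%, 86.5% and 81.7% on scaffolds and 97.6%, 74.8% and 63.8% in the rest. Members in the first 1 Mb stood at 75%, 94.4% and 91.7% in 2-cell TBE and at 97.2%, 94.4% and 88.9% in 4-cell TBE. In 8-cell TBE all 3 position classes lay between 97.2% and 100%.

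**Figure D2:**
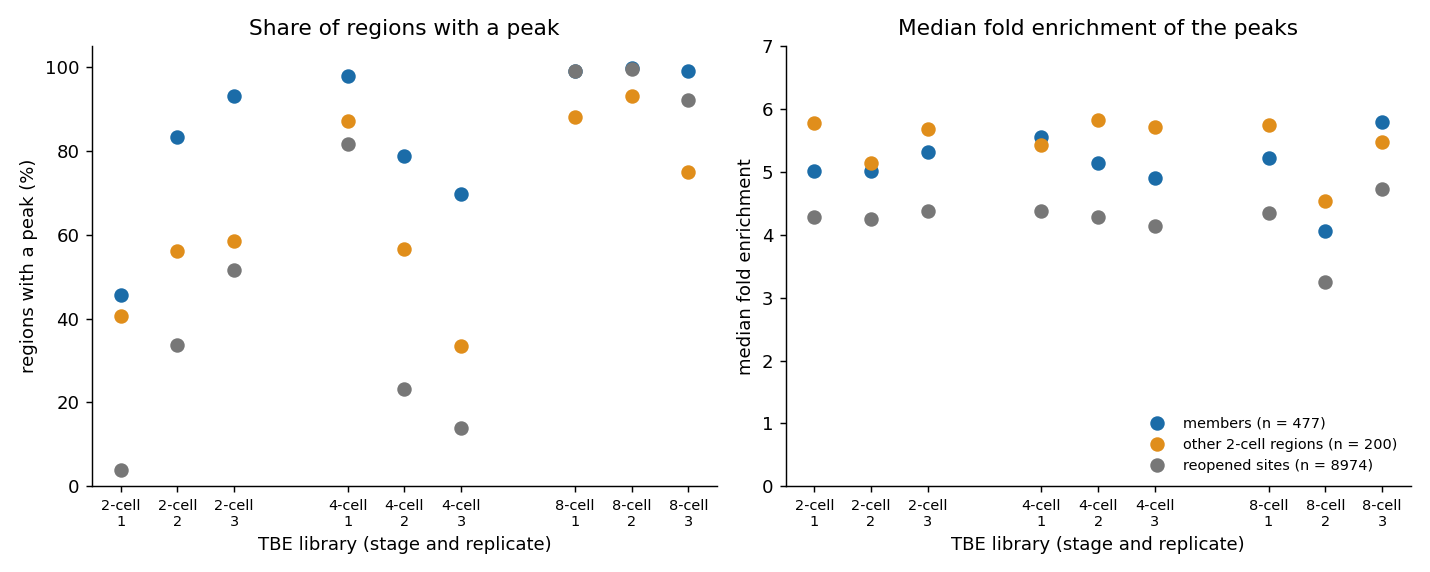
Left, percent of regions with a peak, and right, median fold enrichment of the overlapping peaks, in each of the 9 TBE libraries (x axis), for 477 members (blue), 200 other 2-cell regions (orange) and 8974 reopened sites (grey). Blue stands above grey in each library, by 44.3 points on average in 2-cell TBE and by 2.38 in 8-cell TBE, where grey and blue points nearly coincide in replicates 1 and 2 of the left panel.

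Whether blocking transcription changed the members' openness was compared with control libraries that had no part in choosing them. Each control replicate of a stage was left out in turn, members were chosen with both other replicates required, and the share of those members with a peak was read in the left-out list. A TBE library's value was its mean over the 3 resulting sets, which held 383, 273 and 194 members for 2-cell, 444 to 472 for 4-cell and 452 to 465 for 8-cell embryos. A control value thus came from 1 set and a TBE value from all 3. The SD of the controls therefore also holds differences between sets, and the permutation treats the 2 kinds of value as alike. Each set was still chosen by control lists alone, with the 2 other control lists of the same stage among them. This choice could by itself favour the left-out control list over TBE, and how far it did was not tested.

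At the 2-cell stage the left-out control lists had a peak over 48.8%, 68.1% and 96.4% of members, and the TBE lists over 63.8%, 89.5% and 94.5%. The groups overlapped, and the difference of 11.5 points was smaller than the SD of either group (71.1% ± 23.9 in control, 82.6% ± 16.5 in TBE, SD, n = 3 each, exact two-sided permutation p = 0.7). At the 4-cell stage the control lists stood at 100%, 98.9% and 94.1%, where 12.7%, 6.9% and 4.27% of all merged regions had a peak, and the TBE lists at 98.4%, 80.6% and 72.5%. TBE replicates 2 and 3 were below every control list and TBE replicate 1 was not, and the difference of -13.8 points did not pass the test (97.7% ± 3.15 against 83.8% ± 13.2, SD, n = 3 each; exact p = 0.2). Those TBE lists held 4166 and 3094 peaks, against 14355 to 42012 in the 4-cell controls. At the 8-cell stage the control lists stood at 97.4%, 99.8% and 97.2%, where 44.4%, 43.4% and 51.3% of all merged regions had a peak, and the TBE lists at 99.6%, 99.9% and 99.1% (98.1% ± 1.43 against 99.5% ± 0.443, SD, n = 3 each; exact p = 0.3). Exact permutation tests of 3 libraries against 3 cannot go below p = 0.1, so that no change could have passed 0.05 here. Adjusted over the 6 tests these values were 0.7, 0.3 and 0.36. The effect of α-amanitin was also compared between stages, by permuting labels within each stage, with exact p = 0.19 for 2- against 4-cell, 0.69 for 2- against 8-cell and 0.11 for 4- against 8-cell (0.285, 0.69 and 0.285 adjusted over these 3).

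**Figure D3:**
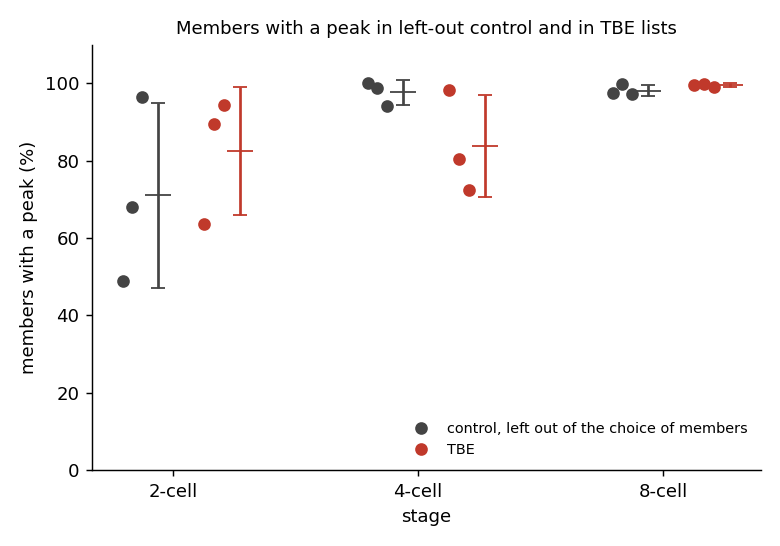
Percent of members with a peak (y axis) at the 2-, 4- and 8-cell stages, in control lists left out of the choice of members (dark points) and in TBE lists (red points), with the mean and SD of 3 libraries beside them. Groups overlap at the 2- and 4-cell stages, and all 6 points of the 8-cell stage lie between 97.2% and 99.9%.

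Over the members with a peak in each library, the median fold enrichment was 5.90 ± 0.286 in GV, 4.73 ± 0.313 in 2-cell, 5.65 ± 0.766 in 4-cell, 5.38 ± 0.282 in 8-cell, 6.56 ± 0.133 in Morula, 6.08 ± 0.0713 in ICM and 5.82 ± 0.298 in ESC (SD, n = 3 each). The 2-cell embryo was the lowest and Morula the highest, although which members had a peak differed between libraries. A peak was present in 20 or 21 of the 21 control lists for 390 members (81.8%), in all 21 for 135 and in all 30 libraries for 112. Over those 112 members, the same in every library, the median fold enrichment was 6.12 ± 0.0515 in GV, 5.95 ± 0.297 in 2-cell, 6.15 ± 0.0978 in 4-cell, 5.52 ± 0.122 in 8-cell, 5.88 ± 0.0152 in Morula, 6.01 ± 0.0361 in ICM and 5.63 ± 0.271 in ESC (SD, n = 3 each). The same median was 6.06 ± 0.382 in 2-cell TBE, 6.04 ± 0.101 in 4-cell TBE and 5.41 ± 0.874 in 8-cell TBE. Over this set the 2-cell embryo lay within the range of the other stages and the 8-cell embryo was the lowest control stage, but the order changed with position. On scaffolds (36 members) the 2-cell embryo was the highest control stage, at 6.62, and Morula the lowest, at 6.03. Among the 76 placed members ESC was the lowest, at 5.12, with 5.28 in 2-cell and 5.32 in 8-cell, and GV the highest, at 5.98. Libraries of 4-cell (6.05 to 6.25), GV (6.07 to 6.17) and 2-cell embryos (5.72 to 6.29) overlapped, as did those of 8-cell (5.40 to 5.64) and ESC (5.32 to 5.83). These 112 members were required to have a peak everywhere, so their values describe the steadiest sites only.

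Among the 135 members in every control list, the highest fold enrichment over the 21 lists exceeded the lowest by 1.83-fold in the median member. Wide members were weakly and narrow members strongly enriched, with a Spearman's rho of -0.755 between width and mean control fold enrichment across these 135 regions, which share their libraries and are not independent replicates. The 50 members with a mean under 5 had a median width of 2401 bp, and the 23 with a mean of at least 10 had a median width of 374 bp. Each of those 23 had a peak in all 9 TBE libraries, against 49 of the 62 in between and 40 of the 50 weak members. Of these 3 classes the wide, weak members had the lowest median ratio of highest to lowest fold enrichment, at 1.47. It was 2.05 for the 62 in between and 1.92 for the 23 strong members. The limit of 5 and the need for a peak in every list could narrow the ratio of the weak class, which was not tested. MACS2 averages fold enrichment over a whole peak, so that a broad site gets a lower value than its highest point. The part of this averaging in the relation between width and fold enrichment was not tested.

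**Figure D4:**
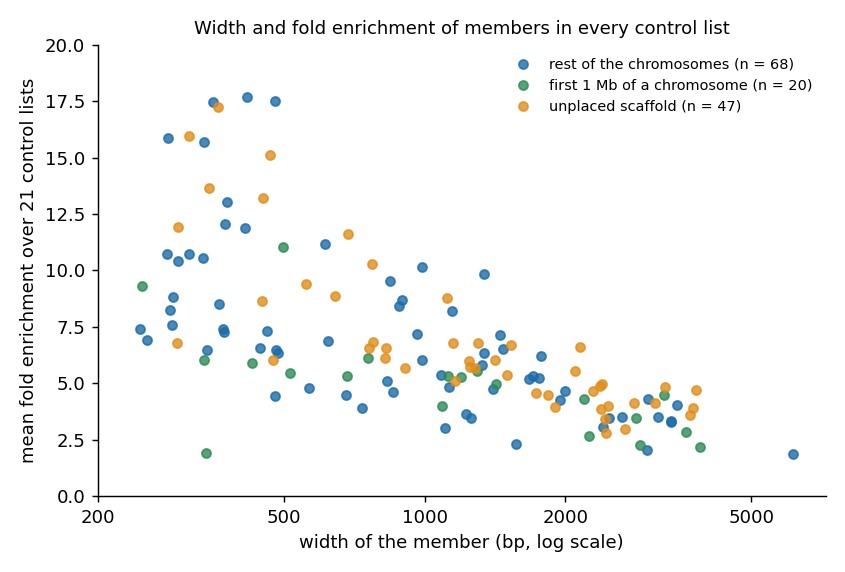
Mean fold enrichment over the 21 control lists (y axis) against width (x axis, bp, log scale) of the 135 members with a peak in every control list, coloured by position. Points above 10 lie at widths of up to 988 bp, and orange (unplaced scaffold) and green (first 1 Mb) points spread over the range of the blue ones.

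The members with the highest mean fold enrichment in TBE were 12 narrow sites, 6 of them placed and 6 on unplaced scaffolds. All 12 had a peak in all 9 TBE libraries and in all 3 2-cell control lists. The leading site was chromosome 17 from 5546506 to 5546984 (479 bp). Its fold enrichment in 2-cell controls was 18.6, 18.2 and 17.1, with 17.2, 17.2 and 17.6 at the 4-cell and 15.1, 18.1 and 17.5 at the 8-cell stage. It was 18.4, 19.1 and 17.9 in 2-cell TBE, 18.2, 18.3 and 18.7 in 4-cell TBE and 14.6, 11.4 and 18.4 in 8-cell TBE. Across all 21 control lists it ran from 15.1 to 18.6, and only 8-cell TBE replicates 1 and 2 lay below that range.

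Chromosome 2 from 40600375 to 40600712 and chromosome 9 from 20771812 to 20772094 had a similar course. In 2-cell controls the chromosome 2 site had 18.2, 18.6 and 13.5, against 10.6, 14.1 and 14.9 in 8-cell controls and 17.6, 16.1 and 16.0 in ESC. The chromosome 9 site had 18.1, 18.4 and 14.5, then 8.56, 16.2 and 16.8, then 14.8, 14.4 and 15.4. Both were lowest among controls in 8-cell replicate 1, and lowest among TBE lists in 8-cell TBE replicate 2, at 9.98 and 9.33.

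Chromosome 1 from 6042800 to 6043215 and chromosome 6 from 109018600 to 109018951 had another course, with the highest stage mean in ESC. On chromosome 1 the values were 16.4, 14.2 and 15.9 in 2-cell embryos, 17.3, 18.5 and 18.7 in Morula and 19.3, 19.0 and 19.2 in ESC. On chromosome 6 they were 16.2, 13.8 and 15.6 in 2-cell embryos, 17.6, 18.6 and 20.3 in Morula and 19.9, 18.7 and 20.2 in ESC, so that the Morula and ESC libraries overlapped there. In 2-cell TBE the chromosome 6 site had 12.3, 12.0 and 14.6, with the highest value inside the range of the 2-cell controls. Chromosome 16 from 10919839 to 10920216 dipped in Morula instead, with 15.8, 15.7 and 12.7 in 2-cell embryos, 10.6, 9.26 and 9.07 in Morula and 14.4, 11.8 and 13.7 in ESC.

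The members with the fewest TBE peaks were 3 sites with 3 TBE libraries each, and each had a peak in 2 of the 3 2-cell control lists. Chromosome 14 from 252678 to 253440 had 3.85 and 3.34 in 2-cell replicates 2 and 3, no peak in any 2-cell TBE library, 3.75 in 4-cell TBE replicate 1 and 3.32 and 2.87 in 8-cell TBE replicates 1 and 2. Its fold enrichment in Morula was 5.99, 5.68 and 5.65. Chromosome 27 from 16559 to 17160 and chromosome 11 from 3824455 to 3824673 had no peak in any 2- or 4-cell TBE list and a peak in all 3 8-cell TBE lists. These were 4.29, 3.03 and 3.78 on chromosome 27 and 6.00, 3.71 and 5.14 on chromosome 11. In the 2-cell controls the chromosome 11 site had a peak of 5.45 and 4.06 in replicates 2 and 3 and none in replicate 1.

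The widest member was chromosome 27 from 6219595 to 6225727 (6133 bp). Its fold enrichment in 2-cell controls was 2.03, 2.10 and 1.90, against 1.85, 1.88 and 1.96 in 8-cell controls and 2.03, 1.92 and 1.85 in 2-cell TBE. Over all 21 control lists it stayed between 1.74 and 2.11. Chromosome 16 from 825848 to 829730 (3883 bp) kept to 2.02 to 2.29 in control lists and had a mean of 2.16 over TBE. It closed a cluster of 3 members from 818428 that all had peaks in all 9 TBE libraries, at mean TBE fold enrichments of 1.90 to 2.25. The other 3 of the 5 widest members lay on unplaced scaffolds, at 3699 to 3812 bp and mean control fold enrichments of 3.58 to 4.70.

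**Figure D5:**
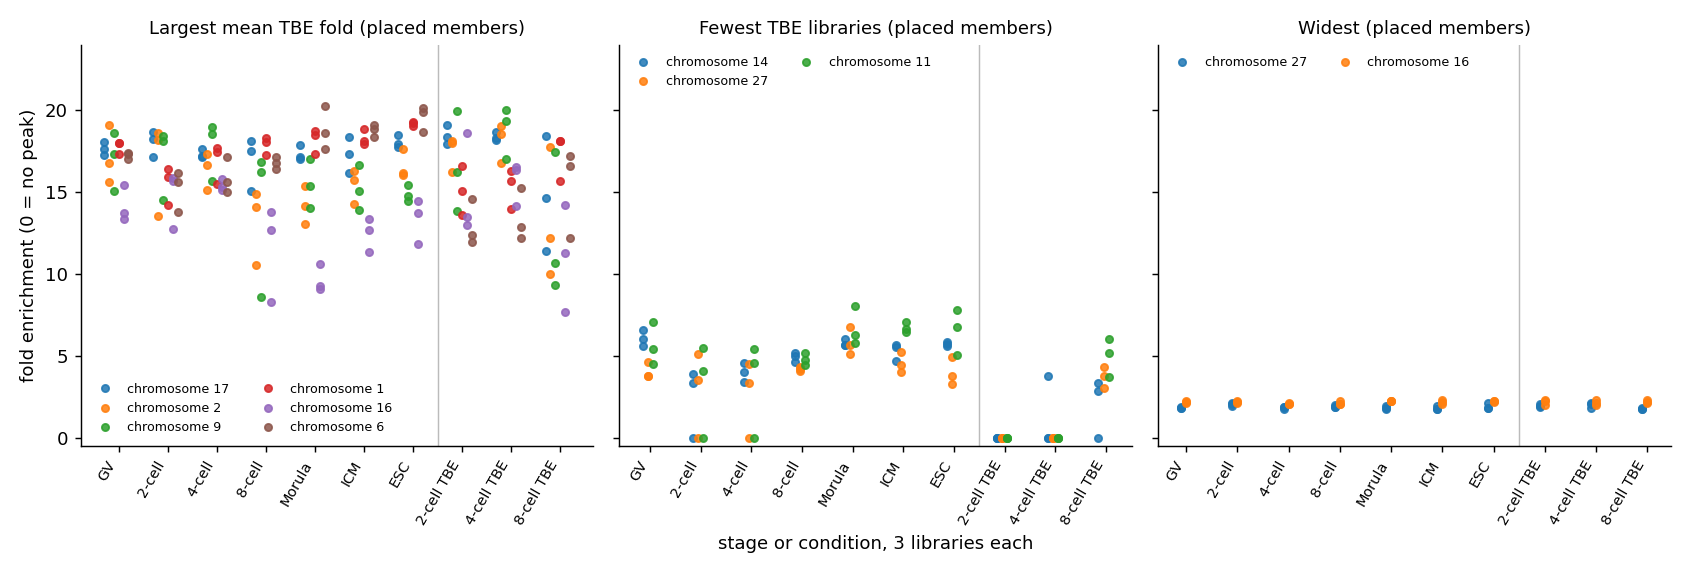
Fold enrichment (y axis, 0 for no peak) in each of 3 libraries of 10 conditions (x axis; TBE right of the grey line) for the placed members with the largest mean TBE fold enrichment, those with the fewest TBE libraries, and the widest. The first set stays mostly between 10 and 20, the second falls to 0 in 2-cell TBE, and the third stays near 2 throughout.

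The 3 2-cell regions with the largest 2-cell fold enrichment among those lacking a single stage show where the group ends. All 3 lay on unplaced scaffolds, were 296 to 340 bp wide and lacked ESC. Their mean fold enrichment in 2-cell embryos was 13.0 ± 4.18, 12.8 ± 2.18 and 11.8 ± 1.22 (SD, n = 3 each), and each had a peak in all 9 TBE libraries. Their mean TBE fold enrichments were 11.2, 12.9 and 9.67, against 12.9 to 17.2 for the 12 leading members, which were picked on that value. Each had a peak in 1 ESC list, and in Morula their means were 6.71 and 6.73 over 3 lists and 4.69 over 2 lists.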

How the data were processed

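The authors trimmed ATAC-seq reads with Trim Galore and cutadapt 0.4.0, used BWA 0.7.17 for alignment to ARS-UCD1.2, filtered with SAMtools 1.7 and PicardTools, and called broad peaks per library with MACS2 2.1.1 at a q value of 0.05 (versions per the submitters' processing notes). The deposited lists give each peak's fold enrichment (a ratio of pileup to local background), −log10 p and −log10 q, all averaged over the peak by the authors, and a score, which the authors computed with MACS2 from the −log10 q and which was not used here. Reads per library are not given here. Lists are neither pooled nor matched in depth, and the part that list length has in a missing peak was not tested.

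Analysis used Python 3.11.15, numpy 2.4.6 and pandas 2.3.3, and figures matplotlib 3.10.9. Fold enrichment of a region was the highest among its overlapping peaks. Interval functions were tested on simulated data (0 mismatches in 200 trials, 300 of 300 planted members found). Members, comparison classes and tests were chosen with earlier results of these data known. Named sites were the 12 members with the largest mean TBE fold enrichment (0 where no peak), the 3 with the fewest TBE libraries, the 5 widest, and the 3 strongest 2-cell regions lacking 1 stage. Sequence, motifs, genes near members and marker genes of the stages were not analysed here, since no genome or annotation of ARS-UCD1.2 was used, and the gene lists planned for naming members were therefore dropped. Alternatives were peaks with −log10 q or fold enrichment of at least 3, 50% overlap, the midpoint in a peak, placed chromosomes, regions of any or all 3 replicates, equal numbers of top peaks, left-out replicates and a replicate block. P-values of TBE against control measure the spread between pools and, in the controls, also that between member sets. P-values between classes of regions measure how steady a difference between fixed lists was over 9 TBE libraries of 3 stages.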

Additional observations from a re-analysis of the deposited data

How the results depend on the processing

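The number of members depended most on the lists. It was 160 with peaks of −log10 q of at least 3, 3092 with peaks of any replicate, 135 with peaks of all 3, and 31 with the 1002 top peaks of each list. It ranged from 147 to 339 when a replicate number was left out of every stage (147 without replicate 3 and 198 without replicate 2), and from 194 to 383 when a 2-cell replicate alone was left out. All 160, 135 and 31 members were among the 477. A fold enrichment of at least 3, a 50% overlap and placed chromosomes kept 445, 434 and 373. The 3 comparisons of members with other classes in TBE kept their direction and stayed below an exact permutation p of 0.05 under every alternative run, at 21.4 to 44.0 points against reopened sites, 11.5 to 44.8 points against other 2-cell regions and 0.601 to 1.22 in median fold enrichment. TBE against control turned to -3.69 points at the 2-cell stage with −log10 q of at least 3 (exact permutation p = 0.8) and to -1.39 points at the 8-cell stage with fold enrichment of at least 3 (exact p = 0.9). The cause was not tested. Leaving out a TBE replicate gave 5.53 to 20.9 points for 2-cell, -21.1 to -8.18 for 4-cell and 1.22 to 1.65 for 8-cell TBE. Deviations of same-numbered control and TBE libraries had correlations of 0.0569 to 0.365 for 2-cell, -0.0181 to 0.0363 for 4-cell and -0.0354 to 0.0223 for 8-cell embryos. Differently numbered 2-cell libraries had -0.389 to 0.108, below the same-numbered values of replicates 1 and 3 (0.252 and 0.365). Pairing at the 2-cell stage was thus not settled. The labels do not say that a number marks 1 collection, and the numbers were not taken as pairs. With a replicate block the exact p was 0.5, 0.25 and 0.25 for differences of 11.5, -13.8 and 1.41 points, and 3 pairs cannot go below 0.25.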

Other observations

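The share of placed members on a chromosome, set beside the share of placed reopened sites, varied around equality, and the following 5 chromosomes are among those farthest from it. Chromosome X held 15 of the placed members (4.02%) and 2.28% of the placed reopened sites, and chromosome 21 held 18 (4.83%) against 2.81%. Chromosome 20 held 2 (0.536%) against 1.80%, chromosome 22 held 3 (0.804%) against 2.52%, and chromosome 18 held 9 (2.41%) against 5.42%. These chromosomes were picked after their values were seen, neighbouring members are not independent, and the difference was not tested.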
